A study of Mus musculus with 18 samples.

Results

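Integrins are the receptors by which leukocytes hold on to other cells and to the extracellular matrix. Here the transcripts of 10 of them were followed in bone marrow-derived macrophages (BMDMs), the macrophages that mouse marrow cells give in culture. The genes were Itgam, Itgax, Itgal, Itgb2, Itga4, Itga5, Itga6, Itgav, Itgb1 and Itgb3. They were taken by name, with no cut on their values, although earlier results of these data were known. Each had 1 row among the 22852 gene symbols of every count table. All 10 passed the filter on low counts that left 11305 genes for testing.

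An integrin is a pair of chains, 1 alpha and 1 beta, and only the assembled pair reaches the cell surface. The Itgb2 chain (CD18) is restricted to leukocytes and pairs with Itgal (CD11a) into LFA-1, with Itgam (CD11b) into the complement receptor Mac-1, and with Itgax (CD11c). The Itgb1 chain pairs with Itga4, Itga5 or Itga6, which bind mainly VCAM-1 and fibronectin, fibronectin, and laminin, and Itgav pairs with Itgb3 and several other beta chains into receptors for vitronectin and related ligands. On macrophages they serve in adhesion, migration and the uptake of opsonized particles, and LPS (lipopolysaccharide, the bacterial ligand of TLR4) is a known regulator of several of them.

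The RNA-Seq data came from 18 samples in 6 groups of 3 BMDM cultures from female C57BL/6 mice, grown for 7 days in medium with supernatant of L929 cells. The groups were unstimulated BMDMs; LPS-primed BMDMs, given LPS at 100 ng/ml for 24 h; LPS-tolerant BMDMs, given the same priming and then LPS at 10 ng/ml for 3 h; both of these kinds again after 25 µM carboplatin, a platinum drug that crosslinks DNA, had been given 1 h ahead of priming; and BMDMs stimulated with the 10 ng/ml dose alone, written LPS-stimulated (10 ng/ml). The study asked how LPS tolerance and carboplatin shape the transcriptome. The labels do not give the time of the 10 ng/ml dose alone, which was taken as 3 h from the study's description. The age of the mice is not given in the sources used here, and the labels tie no replicate to an animal, so p-values measure the spread between these samples, part of which may be technical.

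The gene counts of a sample summed to 6869667 to 14708099 read pairs (median 8986463). All 8 macrophage markers were detected in every group. Their summed level was 137071 to 174259 normalized counts in the groups without priming and 197474 to 277059 in the primed groups, and Adgre1 (log2FC 1.57 ± 0.22), Fcgr1 (1.64 ± 0.24) and Lyz2 (0.82 ± 0.18) rose with priming, as Itgam and Itgb2 did. The defining markers Cd3e, Cd3d, Cd3g and Cd8a of T cells, Ly6g, Mpo and Cxcr2 of neutrophils, and Cpa3, Mcpt8 and Fcer1a of mast cells and basophils were at 0 in all 18 samples. No marker of dendritic cells exceeded 10 counts. Markers of other cell types moved with the groups. Ighm, an immunoglobulin chain of B cells, stood at 255 to 1542 normalized counts in unstimulated, 69.2 to 271 in LPS-stimulated (10 ng/ml) and at most 9.19 in all primed samples. The sum of 4 megakaryocyte and platelet markers was at most 3.82 in unstimulated and 34.7 to 218 in LPS-primed BMDMs, nearly all of it Ppbp, with Gp9 at 0 throughout. The stromal marker Dcn stood at 0.303 ± 0.525 normalized counts (SD, n = 3) in unstimulated and 45.5 ± 15.6 in LPS-primed BMDMs. The other stromal markers, Col1a1, Col1a2 and Pdgfra, were at or below 5.92 in every sample. The endothelial marker Cdh5 stood at 2.62 ± 1.61 in unstimulated and 120 ± 19.1 in LPS-stimulated (10 ng/ml) BMDMs. Kdr, also endothelial, stood at 93.9 ± 35.8 and 67.4 ± 55.7 in these groups, and Tek and Esam were at or below 6.58 in every sample. Kit stood at 10.7 to 40.1 in unstimulated and at most 0.938 in LPS-primed BMDMs. The part of such cells in the results was not tested. In bulk RNA, fewer cells of a type and less RNA per cell cannot be told apart.

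Of the 10 genes, 3 lie together on chromosome 7 of GRCm39. Itgal spans positions 126895432 to 126934320 on the plus strand, Itgam spans 127661808 to 127717753, and Itgax, 10.9 kb further, spans 127728668 to 127749829. Itga6, Itga4 and Itgav lie on chromosome 2, Itgb2 on chromosome 10, Itgb3 on chromosome 11, Itga5 on chromosome 15 and Itgb1 on chromosome 8. GENCODE vM39 lists a further gene, Gm49368, that shares 3450 bp of exon with Itgam on the same strand and has no row in the tables, and Cerkl, on the opposite strand, shares 3481 bp with Itga4. Cerkl had 177 counts over all samples. How reads of shared exons were assigned is not given in the sources used here.

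The 250 bases before the transcription start of the canonical transcript are shown for 5 genes that rose in an LPS comparison: Itgam and Itgb2, the chains of Mac-1, which rose with priming, and Itgal, Itga5 and Itgav, which were highest after the single dose. Capitals mark matches on either strand to GAGGAA, the core read by PU.1 and other ETS factors; to TGANTCA, for AP-1; to GGGNNNNNCC, for NF-kB; and to GGGCGG, for Sp1. Matches to the last pair of motifs can overlap. The sequences are from GRCm39, written 5′ to 3′ on the strand of the gene.
Itgam (chr7:127661558-127661807, plus strand): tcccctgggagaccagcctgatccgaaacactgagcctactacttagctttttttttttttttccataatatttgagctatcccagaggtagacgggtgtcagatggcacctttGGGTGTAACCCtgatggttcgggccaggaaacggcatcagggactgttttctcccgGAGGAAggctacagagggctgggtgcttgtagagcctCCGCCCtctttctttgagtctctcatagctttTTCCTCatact
Itgb2 (chr10:77365836-77366085, plus strand): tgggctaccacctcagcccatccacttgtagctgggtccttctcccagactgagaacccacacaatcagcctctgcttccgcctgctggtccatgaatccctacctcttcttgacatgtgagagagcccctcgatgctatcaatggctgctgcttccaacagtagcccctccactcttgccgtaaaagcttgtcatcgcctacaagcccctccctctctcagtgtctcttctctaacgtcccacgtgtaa
Itgal (chr7:126895182-126895431, plus strand): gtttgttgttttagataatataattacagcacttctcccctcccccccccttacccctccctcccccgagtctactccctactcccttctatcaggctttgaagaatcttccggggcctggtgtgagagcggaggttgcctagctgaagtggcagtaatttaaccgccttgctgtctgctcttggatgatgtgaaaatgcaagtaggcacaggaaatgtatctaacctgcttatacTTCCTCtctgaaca
Itga5 (chr15:103275191-103275440, minus strand): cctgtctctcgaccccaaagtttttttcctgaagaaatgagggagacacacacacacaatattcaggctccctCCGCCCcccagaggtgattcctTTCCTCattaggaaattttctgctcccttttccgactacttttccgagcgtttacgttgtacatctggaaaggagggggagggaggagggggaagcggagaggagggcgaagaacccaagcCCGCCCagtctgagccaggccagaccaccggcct
Itgav (chr2:83554153-83554402, plus strand): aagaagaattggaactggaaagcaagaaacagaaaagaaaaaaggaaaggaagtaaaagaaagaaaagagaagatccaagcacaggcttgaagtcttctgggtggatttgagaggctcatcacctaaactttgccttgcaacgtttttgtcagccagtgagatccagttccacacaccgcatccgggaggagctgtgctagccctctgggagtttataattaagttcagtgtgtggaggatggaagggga

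Among 21751 upstream stretches of the same length, GAGGAA or its complement was present in 22.9%, TGANTCA in 6.2%, GGGNNNNNCC in 47.8% and GGGCGG in 36.3%. Itgam held GAGGAA letters beginning 80 and 11 bases before its start, overlapping NF-kB matches at 136 and 135 bases and an Sp1 match at 43 bases. Itgal held a GAGGAA match 14 bases before its start and no other of the motifs. Itga5 held a GAGGAA match at 155 bases and Sp1 matches at 177 and 34 bases, whereas the stretches of Itgb2 and Itgav held none of the 4. Of all 10 genes, 3 had a GAGGAA match, 1 (Itgax) a TGANTCA match, 4 an NF-kB match and 5 an Sp1 match. The shares are descriptions of letters and say nothing about binding.

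Levels between genes were compared as normalized counts per kb of the canonical transcript. In unstimulated BMDMs, the Itgb2 chain stood at 3072 normalized counts per kb, Itgam at 1307 and Itgb1 at 1194. Itga6, the laminin receptor chain, came next at 538, followed by Itga5 at 267, Itgav at 119, Itgal at 69.0, Itga4 at 61.0, Itgax at 26.4 and Itgb3 at 12.6. Among the alpha chains, Itgam and Itga6 thus stood first in unstimulated BMDMs. After the single dose the order of the alpha chains was Itga5 at 1736, Itgam at 1322, Itgav at 1180, Itgal at 382, Itga6 at 226, Itga4 at 126 and Itgax at 25.2 per kb. In LPS-primed BMDMs, Itgam at 7217 per kb stood above Itgb2 at 5157, and the other alpha chains lay between 9.65 (Itgax) and 433 (Itga5).

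**Figure D1:**
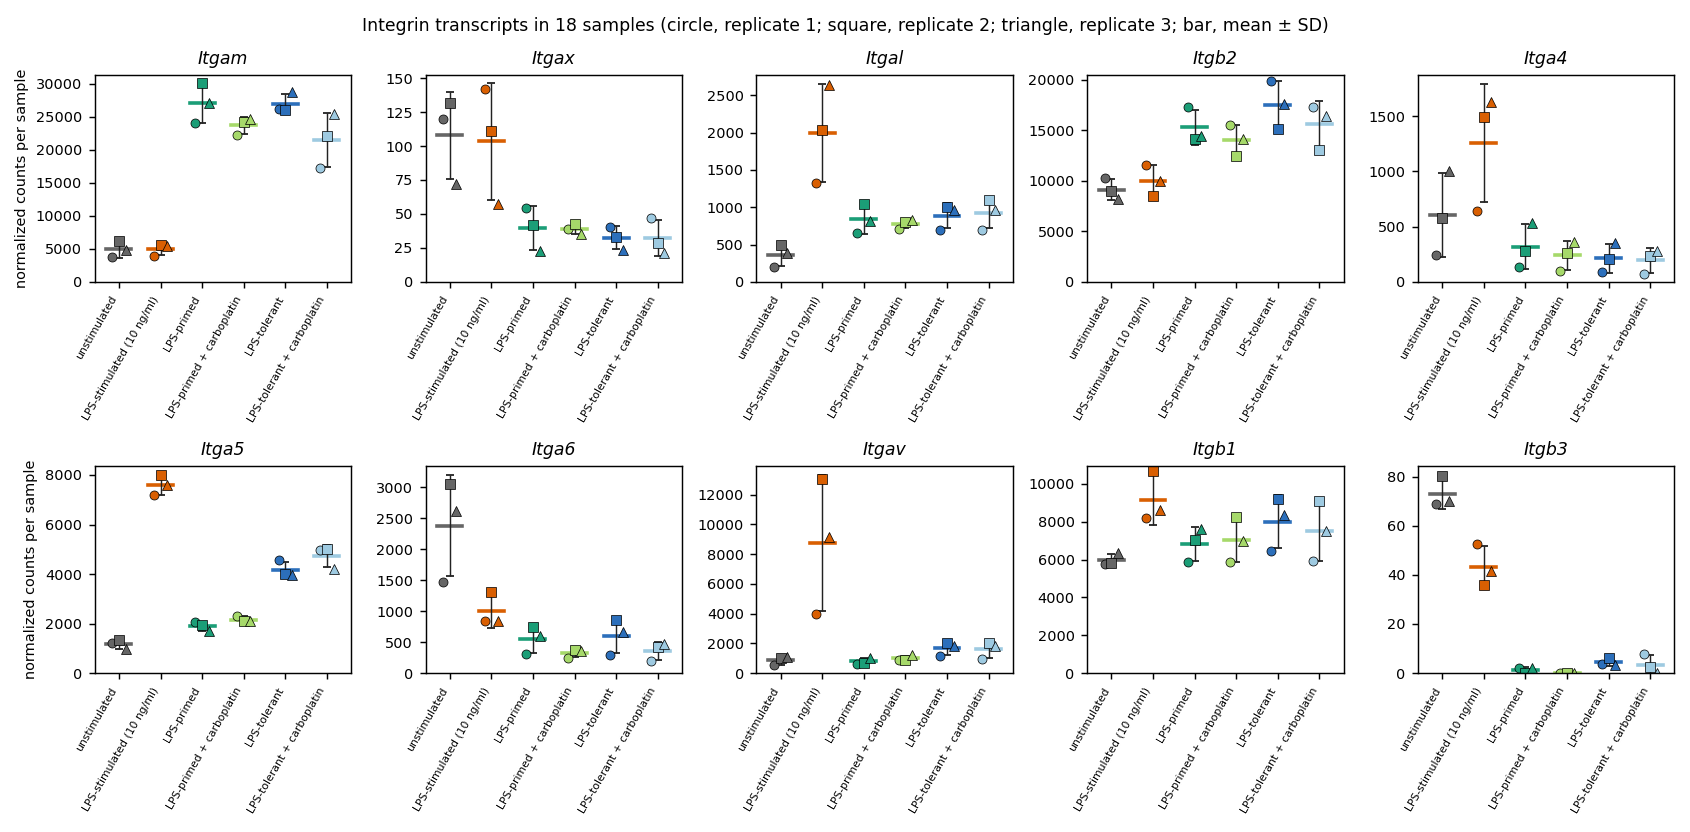
Normalized counts of 10 integrin genes (y axis, linear, from 0) in the 18 samples, by group; symbols are replicates 1 to 3, coloured bars the means and black bars the SD. Itgam and Itgb2 stand higher in the 4 groups that were primed, Itgal, Itga5 and Itgav stand highest in LPS-stimulated (10 ng/ml) BMDMs, and Itgb3 is at 0 to 7.87 normalized counts in every primed sample.

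Priming for 24 h was compared with no stimulation first. Of the 10 genes, 4 rose (Itgam, Itgal, Itgb2 and Itga5) and 3 fell (Itgax, Itga6 and Itgb3), at an adjusted p under 0.05 by edgeR's quasi-likelihood test; of all tested genes, 12.1% rose and 13.1% fell. The median log2 fold change (log2FC) of the 10 genes was 0.01, beside -0.02 over all tested genes. At a stricter limit, which also asked for an absolute log2FC over 2 as the study did, 3 of the 10 genes (Itgam, Itga6 and Itgb3) and 7.47% of all genes passed.

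Itgam, the alpha chain of Mac-1, was the gene that moved most among those with high counts. Its normalized counts were 3696, 6222 and 4758 in unstimulated and 23999, 30057 and 27006 in LPS-primed BMDMs. Every primed sample stood well above every unstimulated one, and the log2FC was 2.47 ± 0.20 (SE, adjusted p = 1.1e-07, edgeR). Its partner Itgb2 rose from 10235, 8962 and 8179 to 17319, 14170 and 14460, a log2FC of 0.75 ± 0.16 (adjusted p = 0.00212, edgeR), again without overlap of the groups. The summed alpha chains of the Itgb2 family stood at 0.465 ± 0.146 (SD, n = 3) of the Itgb2 level per kb in unstimulated and at 1.45 ± 0.306 in LPS-primed BMDMs. The lowest primed ratio, 1.12, was above the highest unstimulated ratio, 0.593. Of 8 neutrophil markers, a cell type rich in Mac-1, 3 had a count in LPS-primed BMDMs and 1, Csf3r, exceeded 10 counts; their sum was 399 to 682 normalized counts in unstimulated and 1417 to 2130 in LPS-primed BMDMs, while Ly6g, Mpo and Cxcr2 were at 0.

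Itgal, the LFA-1 alpha chain that binds ICAM-1, had 204, 497 and 383 normalized counts in unstimulated and 659, 1046 and 815 in LPS-primed BMDMs, and its log2FC was 1.22 ± 0.30 (adjusted p = 0.00537, edgeR). Itgax, often used to mark dendritic cells, was scarce throughout. It had 120, 132 and 71.8 normalized counts before and 54.0, 42.2 and 22.5 after priming, with a log2FC of -1.45 ± 0.39 (adjusted p = 0.0102, edgeR), so that it fell where its neighbour Itgam rose. Without LPS-primed replicate 3, which held the lowest of these values, the Itgax call was lost, with a log2FC of -1.16 and an adjusted p of 0.0583. Itgad, the remaining alpha partner of Itgb2, had no count in any sample.

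Among the chains outside the Itgb2 family, Itga5, the fibronectin receptor chain, rose modestly, from 1217, 1332 and 958 to 2049, 1942 and 1694 normalized counts (log2FC 0.70 ± 0.14, adjusted p = 9.9e-04, edgeR). Itga6 fell from 1464, 3044 and 2616 to 303, 738 and 595, a log2FC of -2.12 ± 0.41 (adjusted p = 9.9e-04, edgeR). The Itgb1 chain, with which both pair, did not pass the test, at a log2FC of 0.19 ± 0.18 (adjusted p = 0.497, edgeR). Itgav was also without a call, at -0.17 ± 0.39.

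Itgb3, known from platelets and osteoclasts and paired with Itgav elsewhere, was nearly lost. Its raw counts were 72, 98 and 77 in unstimulated and 2, 0 and 2 in LPS-primed BMDMs (edgeR, adjusted p = 3.5e-05). From the pooled counts of 247 and 4, its level was 53.0 times lower after priming, with an exact 95% interval of 20.4 to 196 that covers counting error only. In LPS-primed BMDMs given carboplatin it had no count, which gives no fold against the primed group.

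Itga4, which binds VCAM-1, differed widely between replicates of the unstimulated group, at 244, 578 and 1000 normalized counts, and stood at 135, 283 and 535 after priming. Its log2FC of -0.93 ± 0.63 did not pass the test (adjusted p = 0.322, edgeR). With the replicate number as a block, which compares same-numbered samples, the log2FC was -0.92 ± 0.15 (adjusted p = 1.2e-04, edgeR), and it was lower in 3 of 3 pairs. The block brought the members called to 8, beside 38.6% of all tested genes called with it.

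The second comparison set 3 h of LPS at 10 ng/ml against no stimulation. Here 4 genes rose (Itgal, Itga5, Itgav and Itgb1) and Itga6 fell, while 24.3% of all tested genes rose and 26.9% fell. The median log2FC was 0.38 over the 10 genes and -0.09 over all. Itgal, Itga5 and Itgav also passed the stricter limit, as did 12% of all genes. The same unstimulated samples served in this comparison and the one before.

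Itgav moved most, from 522, 1021 and 1100 to 3949, 13062 and 9145 normalized counts. The lowest stimulated sample was above every sample of the other groups, although the stimulated samples differed 3.31-fold among themselves, and the log2FC was 3.31 ± 0.42 (adjusted p = 5.7e-06, edgeR). Itga5 rose from 1217, 1332 and 958 to 7211, 8017 and 7594 (log2FC 2.70 ± 0.14, adjusted p = 2.6e-10, edgeR), with little spread within either group. For Itgal the stimulated values were 1324, 2038 and 2637, and the log2FC was 2.47 ± 0.30 (adjusted p = 4.4e-06, edgeR). The Itgb1 chain rose less, from 5782, 5826 and 6339 to 8208, 10698 and 8602 (log2FC 0.62 ± 0.18, adjusted p = 0.00926, edgeR). The Itgb1 call was lost when samples were scaled by library size alone, at a log2FC of 0.28, a setting that moved the median of all genes from -0.09 to -0.43, and without LPS-stimulated (10 ng/ml) replicate 2, at a log2FC of 0.49 and an adjusted p of 0.0527.

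Itgam, by contrast, stayed between 3840 and 5606 normalized counts after the single dose, within the range of the unstimulated samples, and its log2FC was 0.02 ± 0.19 with a 95% interval of -0.38 to 0.42. Itgb2 likewise did not pass the test, at 0.14 ± 0.16, and neither did Itgax, at -0.07 ± 0.37. Itga6 had 839, 1313 and 846 normalized counts, all below the lowest unstimulated sample, with a log2FC of -1.25 ± 0.40 (adjusted p = 0.0158, edgeR). That call was lost without unstimulated replicate 2, or without replicate 1 or 3 of the stimulated group, with adjusted p up to 0.0722. Itgb3 had 44, 52 and 42 raw counts, below the unstimulated samples, at a log2FC of -0.76 ± 0.49 (adjusted p = 0.212, edgeR); limma-voom called it, at -0.80 with an adjusted p of 0.0306. Itga4, at 643, 1496 and 1628, was higher in 3 of 3 pairs; its log2FC was 1.05 ± 0.63 (adjusted p = 0.172, edgeR) without the block and 1.16 ± 0.15 (adjusted p = 2.8e-06, edgeR) with it. With the block 6 members were called, beside 63.2% of all tested genes.

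**Figure D2:**
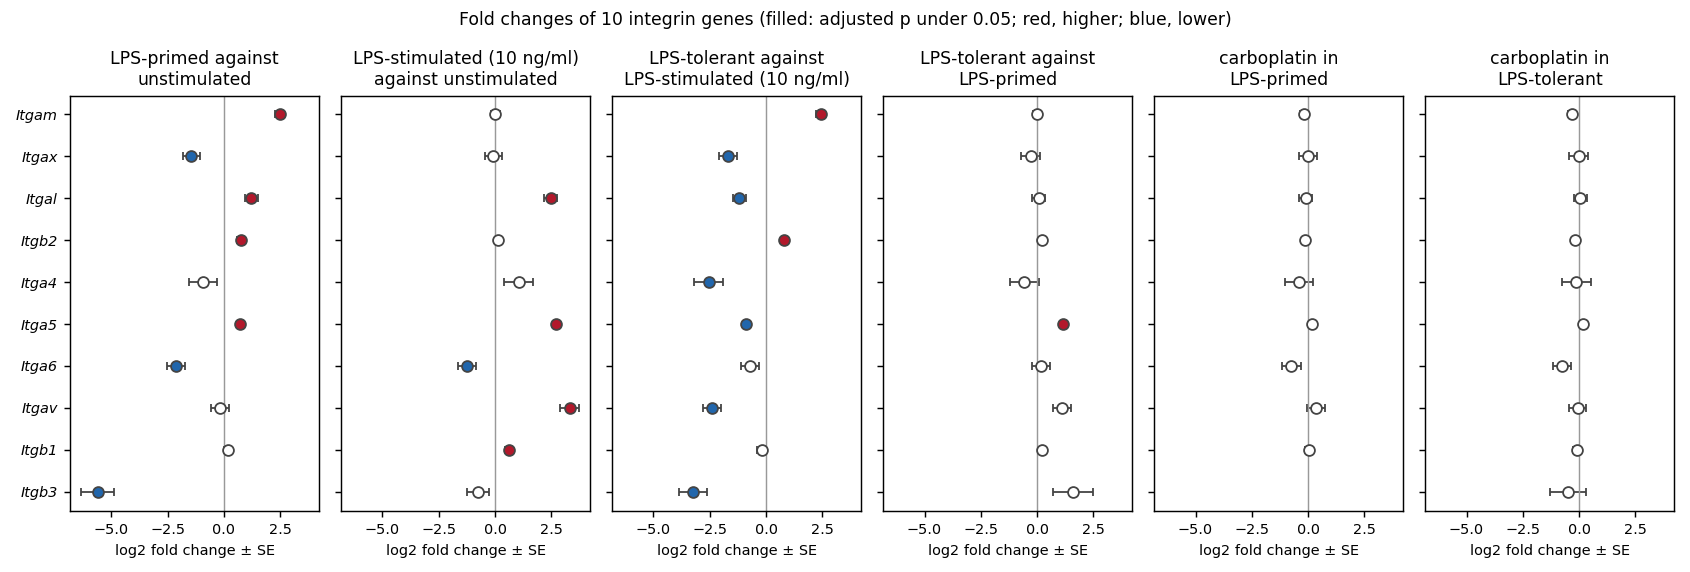
Log2 fold changes (x axis) with SE of the 10 genes (y axis) in 6 comparisons of 3 against 3 samples; filled symbols have an adjusted p under 0.05 (edgeR), red for higher and blue for lower. Of the 10 genes, 7 were called for priming, 5 for the single dose and 8 for tolerance against it. The second dose called 1 and carboplatin none. Of all tested genes, 12.1% rose and 13.1% fell with priming, and 24.3% and 26.9% with the single dose. For tolerance against the single dose 16.2% were higher and 18.3% lower. In either direction 6.31% were called for the second dose, and 0.372% and 0.425% for carboplatin in primed and tolerant cells. The members called with the single dose are thus a share near that of all genes. Itgb3 is left out where both groups held at most 2 counts per sample.

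The make-up of the Itgb2 family can be read within each sample, free of any scaling between samples. Itgam supplied 93.5%, 92.9% and 93.3% of the summed per-kb level of Itgam, Itgal, Itgax and Itgad in unstimulated BMDMs, and 97.9%, 97.4% and 97.8% after priming. After the single dose its share was 78.1%, 78.2% and 73.6%. The share of Itgal was 4.79 ± 0.957% (SD, n = 3) unstimulated, 2.15 ± 0.254% primed, 21.8 ± 3.44% after the single dose and 2.29 ± 0.412% in LPS-tolerant BMDMs. In each of the first 3 LPS comparisons the groups did not overlap in either share, and the two-sided exact permutation p was 0.1, the smallest that 3 against 3 samples allow. The Itgal share was thus lower after priming although the Itgal transcript rose.

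**Figure D3:**
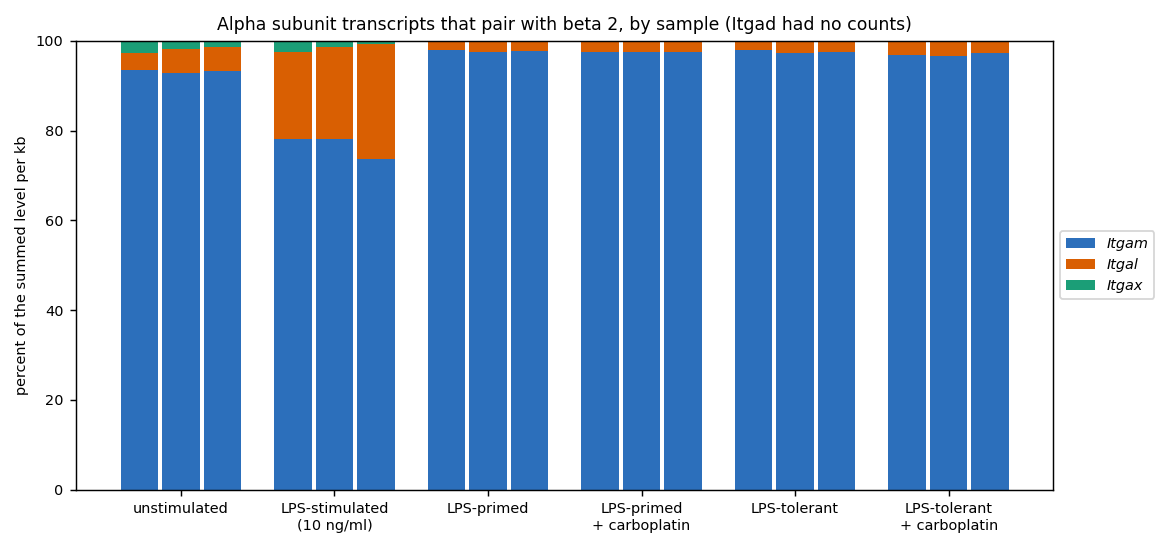
Share of each alpha chain in the summed per-kb level of the alpha chains that pair with Itgb2 (y axis, percent), as 1 stacked bar for each of 3 samples in 6 groups. Itgal reaches 19.3 to 25.7% in LPS-stimulated (10 ng/ml) BMDMs and stays at or below 5.37% in the other groups.

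The comparison of LPS-tolerant with LPS-stimulated (10 ng/ml) BMDMs asked what the same last dose gave with and without earlier priming. Itgam and Itgb2 were higher in tolerant cells, and Itgax, Itgal, Itga4, Itga5, Itgav and Itgb3 were lower, in a setting in which 16.2% of all tested genes were higher and 18.3% lower. The median log2FC was -1.02 over the 10 genes and 0.00 over all. At the stricter limit 4 members (Itgam, Itga4, Itgav and Itgb3) passed, beside 8.04% of all genes.

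Itgam stood at 26089, 25981 and 28694 in tolerant against 3840, 5606 and 5405 normalized counts in LPS-stimulated (10 ng/ml) BMDMs (log2FC 2.44 ± 0.20, adjusted p = 1.0e-07, edgeR). Itgb2 stood at 19921, 15160 and 17589 against 11536, 8526 and 10020 (log2FC 0.81 ± 0.16, adjusted p = 8.2e-04, edgeR). Both chains of Mac-1 were higher in every tolerant sample than in any LPS-stimulated (10 ng/ml) sample. The alpha chain of LFA-1, whose beta chain is also Itgb2, went the other way. Itgal had 691, 1000 and 964 normalized counts in tolerant cells, all below the 1324 of the lowest LPS-stimulated (10 ng/ml) sample (log2FC -1.18 ± 0.29, adjusted p = 0.00461, edgeR).

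Itgav was lower in tolerant cells, at 1164, 2016 and 1848 (log2FC -2.38 ± 0.40, adjusted p = 2.0e-04, edgeR). Itga4 was at 87.4, 206 and 348 normalized counts against 643, 1496 and 1628, a log2FC of -2.55 ± 0.66 (adjusted p = 0.00626, edgeR). Itga5 differed less, at 4547, 3987 and 3969 (log2FC -0.87 ± 0.14, adjusted p = 9.9e-05, edgeR), and every tolerant value was above the highest unstimulated one. Itgax had a log2FC of -1.68 ± 0.40 (adjusted p = 0.00324, edgeR). For Itgb3, with 13 pooled counts against 138, the level was 9.40 times lower (exact 95% interval 5.32 to 18.1, counting error only; edgeR, adjusted p = 7.8e-04). Itga6 had a log2FC of -0.72 ± 0.40 without a call (adjusted p = 0.182, edgeR), and of -0.82 ± 0.18 with the replicate block (adjusted p = 0.00110, edgeR); with the block 9 members and 47.6% of all tested genes were called. Itgb1 did not pass the test in either fit.

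The second dose itself was read by setting LPS-tolerant against LPS-primed BMDMs, which had the same 24 h of priming. Itga5 alone was called, beside 6.31% of all tested genes. It rose from 2049, 1942 and 1694 to 4547, 3987 and 3969 normalized counts, with no overlap of the groups and a log2FC of 1.14 ± 0.14 (adjusted p = 1.3e-04, edgeR). Itgav was also higher in 3 of 3 pairs without overlap, from 590, 709 and 1046 to 1164, 2016 and 1848; its log2FC was 1.10 ± 0.39 (adjusted p = 0.107, edgeR), and 1.08 ± 0.22 with the block (adjusted p = 0.00269, edgeR). It was also called by DESeq2 and in a fit of these groups alone. Itga4, lower in 3 of 3 pairs, had a log2FC of -0.57 ± 0.64 without a call (adjusted p = 0.677, edgeR) and -0.57 ± 0.16 with the block (adjusted p = 0.0192, edgeR). With the block 3 members were called in place of 1, beside 18% of all tested genes. The median log2FC was 0.18 over the 10 genes and -0.01 over all.

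No further change was called in the Itgb2 family. Itgam had a log2FC of -0.01 ± 0.19 with a 95% interval of -0.41 to 0.40, Itgal of 0.08 ± 0.29 with an interval of -0.53 to 0.69, and Itgb2 of 0.20 ± 0.16 with an interval of -0.14 to 0.53. Itgb3 had 3, 7 and 3 raw counts in tolerant against 2, 0 and 2 in primed cells, a ratio of 3.22 with an exact 95% interval of 0.994 to 13.5.

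Whether the response to the 10 ng/ml dose differed after priming was tested as the difference of the responses with and without it, which share no samples. Of the 10 genes, 3 were called with a lower response after priming and none with a higher one, beside 13.3% of all tested genes with a lower and 10.5% with a higher response. For Itgal the response went from 2.47 to 0.08 on the log2 scale, a difference of -2.39 ± 0.41 (adjusted p = 4.0e-04, edgeR). For Itgav it went from 3.31 to 1.10, a difference of -2.21 ± 0.55 (adjusted p = 0.00729, edgeR). For Itga5 it went from 2.70 to 1.14, a difference of -1.57 ± 0.19 (adjusted p = 1.3e-05, edgeR). The difference did not pass the test for Itga4, at -1.62 ± 0.89 (adjusted p = 0.219, edgeR), for Itga6, at 1.40 ± 0.57 (adjusted p = 0.0859, edgeR), or for Itgb1, at -0.39 ± 0.26. Itga6 was called, with a higher response after priming, at 1.66 without unstimulated replicate 1, at 1.73 without LPS-tolerant replicate 1 and at 1.66 with library size alone. With the replicate block, Itga4 was called at -1.74 ± 0.22 (adjusted p = 6.3e-06, edgeR) and Itga6 at 1.32 ± 0.25 (adjusted p = 5.1e-04, edgeR). That block called 1939 tested genes with a higher and 2152 with a lower response. For this comparison the replicate numbers were not taken to pair the samples. No value is given for Itgb3, whose LPS-primed samples held at most 2 counts. The median difference was -0.31 over the 10 genes, the fitted value of Itgb3 included, and 0.06 over all.

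**Figure D4:**
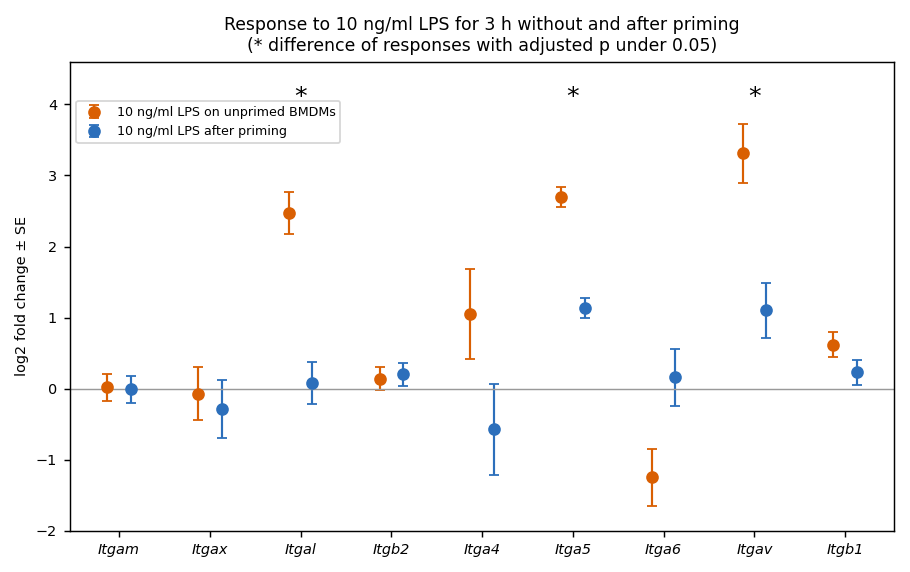
Log2 fold change with SE (y axis) of 9 integrin genes (x axis) after 3 h of LPS at 10 ng/ml, in unprimed BMDMs (orange) and after priming (blue). Asterisks mark the 3 genes, Itgal, Itga5 and Itgav, whose responses differed at an adjusted p under 0.05 (edgeR). Of all tested genes, 13.3% had a lower and 10.5% a higher response after priming. Itgb3 is left out since LPS-primed samples held at most 2 counts.

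Carboplatin before priming changed none of the 10 genes by the test, in a background of 0.372% of all tested genes called in LPS-primed and 0.425% in LPS-tolerant BMDMs. No member had an unadjusted p under 0.05 in either comparison, and none was called by DESeq2, limma-voom or with the replicate block, under which 1.77% of all tested genes were called in primed and 1.77% in tolerant cells. The median log2FC of the members was -0.12 in primed (-0.06 with Itgb3 at no change) and -0.11 in tolerant cells, against 0.01 over all genes in both.

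Itga6 had the largest differences among members with more than a few counts. It stood at 244, 373 and 356 normalized counts with carboplatin and 303, 738 and 595 without it in primed cells, and the ranges overlapped. The log2FC was -0.74 ± 0.41, with a 95% interval of -1.60 to 0.12 (adjusted p = 0.806, edgeR). In tolerant cells it stood at 193, 423 and 466 with carboplatin and 296, 855 and 666 without, a log2FC of -0.75 ± 0.41 with an interval of -1.60 to 0.11 (adjusted p = 0.839, edgeR). It was lower in 3 of 3 pairs in both settings, and with the block the adjusted p was 0.0738 in primed and 0.0587 in tolerant cells (edgeR).

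Itgam stood at 22223, 24262 and 24663 normalized counts in primed cells given carboplatin, with a log2FC of -0.19 ± 0.19 and a 95% interval of -0.59 to 0.21. In tolerant cells given carboplatin it stood at 17181, 22030 and 25328, all below the lowest tolerant sample without it, with a log2FC of -0.32 ± 0.19 and an interval of -0.73 to 0.08 (adjusted p = 0.882, edgeR). The Itgam share of the Itgb2 family was 97.6 ± 0.0390% and 96.9 ± 0.417% (SD, n = 3) with carboplatin in primed and tolerant cells, against 97.7 ± 0.230% and 97.6 ± 0.396% without it (two-sided exact permutation p = 0.400 and 0.200). The log2FC of Itgal, Itgb2 and Itgb1 lay between -0.17 and 0.05 in both settings, and those of Itga5 were 0.19 in both. No difference between the carboplatin effects in tolerant and primed cells was called, for the members or for any tested gene (0%, and 0% with the block), although 131 tested genes had an unadjusted p under 0.05 by edgeR, none of them a member.

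Other genes of integrin function were read from lists of their subunits, activators, kinases and ligands. Their counts of calls stand beside 12.1% higher and 13.1% lower of all tested genes with priming, 24.3% and 26.9% with the single dose, 16.2% and 18.3% for tolerance against it, and 6.31% in either direction for the second dose, so that the 14 of 26 activators called with the single dose, for example, are a share near that of all genes. Of the 16 other integrin subunits, 7 passed the filter on low counts. Itga1, a collagen receptor chain, rose with priming from 7.20 ± 7.15 to 584 ± 229 normalized counts (SD, n = 3; log2FC 6.33 ± 0.71, adjusted p = 4.0e-06, edgeR) and with the single dose to 88.7 ± 64.5. Itgb8, which pairs with Itgav to activate TGF-beta, had 1 to 3 raw counts in unstimulated BMDMs. Its pooled counts gave a level 42.3 times higher after priming (exact 95% interval 19.1 to 117, counting error only) and 136 times higher after the single dose (62.1 to 371). Itgb5, a further partner of Itgav, fell from 3637 ± 408 to 1628 ± 228 with priming (log2FC -1.16 ± 0.17, adjusted p = 5.4e-05, edgeR) and to 1731 ± 387 with the single dose. Itga10, at 11 and 1 pooled counts, was called lower after the single dose, and in tolerant against LPS-stimulated (10 ng/ml) cells Itga10 and Itga8 were called higher, on 12 against 1 and 44 against 8 pooled counts. Among these 7 genes, 2 rose and 1 fell with priming, at a median log2FC of 1.62; 3 rose and 2 fell with the single dose, at a median of -0.36; and 3 were higher and 1 lower in tolerant against LPS-stimulated (10 ng/ml) BMDMs, at a median of 0.51. The second dose called none of them, with the smallest p at Itga10 (log2FC -1.25 ± 0.61, adjusted p = 0.249, edgeR).

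Of 32 activators and adaptors 26 were tested. With priming 4 rose and 6 fell, at a median log2FC of -0.08, and with the single dose 10 rose and 4 fell, at a median of 0.15. Bcar1, a docking protein of focal adhesions, stood at 2.64 ± 0.688 normalized counts unstimulated, 73.0 ± 24.8 primed and 119 ± 40.8 after the single dose (log2FC 4.71 ± 0.43 and 5.41 ± 0.42, adjusted p = 3.7e-07 and 2.5e-08, edgeR). Tns1, which links integrins to actin, fell from 1704 ± 678 to 243 ± 216 with priming (log2FC -2.81 ± 0.56) and to 386 ± 78.8 with the single dose (-2.14 ± 0.54). Fyb rose with priming by 0.82 ± 0.16, Kank2 fell by 1.10 on the log2 scale, Rap1b, a GTPase that activates integrins, rose by 1.55 ± 0.24 with the single dose, and Rapgef3 fell by 2.83. Between tolerant and LPS-stimulated (10 ng/ml) cells 5 were higher, led by Fermt3, the kindlin of blood cells (0.79 ± 0.16), and Cyth1 (0.66 ± 0.24), and 5 lower, led by Tns3 (-0.99 ± 0.33) and Pxn (-0.97 ± 0.15), at a median of 0.02. The second dose raised 5 and lowered none (median 0.22), among them Parvb (1.35 ± 0.19) and Vcl, the gene of vinculin (1.09 ± 0.30). Tln1, the gene of talin, which switches integrins on, had no call in any LPS comparison, with a log2FC of -0.15 ± 0.12 after priming; it was named after its values were seen.

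All 15 kinases and signalling genes were tested. Src, of the kinase family that acts beneath Itgb2, rose from 38.2 ± 7.36 to 215 ± 47.3 normalized counts with priming and to 1418 ± 228 with the single dose (log2FC 2.48 ± 0.30 and 5.20 ± 0.32, adjusted p = 1.0e-05 and 1.7e-09, edgeR). Fgr, of the same family, rose by 1.80 ± 0.37 and 2.35 ± 0.38. Fyn fell by 1.05 with priming, Plcg2 fell by 0.58 with priming and by 1.04 with the single dose, and Pik3cd fell by 1.55 with the single dose. Priming raised 6 and lowered 3, at a median of 0.26, and the single dose likewise raised 6 and lowered 3, at a median of 0.10. In tolerant against LPS-stimulated (10 ng/ml) cells 3 were higher, with Pik3cg at 1.37 ± 0.26 and Ptk2, the gene of focal adhesion kinase, at 1.30 ± 0.26, and 5 lower, with Src at -2.56 ± 0.28 and Fyn at -1.34 ± 0.16 (median -0.02). The second dose lowered Pik3cd alone, with a log2FC of -1.70 ± 0.24 (median 0.16).

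Of 25 ligands and counter-receptors 16 were tested. Icam1, the ligand of LFA-1 and Mac-1, stood at 709 ± 138 normalized counts unstimulated, 1773 ± 89.6 primed, 21288 ± 4729 after the single dose and 1855 ± 157 in tolerant cells. Vcam1, the ligand of Itga4 with Itgb1, stood at 8.10 ± 4.34, 50.9 ± 21.4, 837 ± 88.0 and 32.7 ± 8.38 in the same order, with log2FC of 6.64 ± 0.36 for the single dose and -4.66 ± 0.32 for tolerance against it. Thbs1 and C3, whose product iC3b is bound by Mac-1, rose by 7.08 ± 0.86 and 4.27 ± 0.35 with priming, while Spp1 fell by 2.16 and Icam2 by 1.13. After the single dose Icam2 again fell, by 1.08, and Lama5, which had no unstimulated count, stood at least 9.54-fold higher against a floor of 3 counts per library. It was at least 8.10-fold lower in tolerant cells, where Thbs1 (3.46 ± 0.72) and Edil3 (1.88 ± 0.35) were higher. Priming raised 8 and lowered 3, at a median of 1.41, or 0.99 with Lama5 left at no change; the single dose raised 11 and lowered 1, at a median of 1.68; tolerance against the single dose gave 3 higher and 8 lower, at a median of -0.56. The second dose called none, with the smallest p at Tgfb1 (log2FC 0.44 ± 0.15, adjusted p = 0.0848, edgeR; 0.00480 with the block).

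In the difference of responses to the 10 ng/ml dose, 13.3% of all tested genes had a lower and 10.5% a higher response after priming. Beside these shares, the 16 ligands tested held 8 genes with a lower response and none with a higher one, at a median difference of -1.75. Vcam1 led with -7.26 ± 0.47, followed by Icam1 with -4.84 ± 0.26 (adjusted p = 9.8e-09 and 1.7e-09, edgeR). Among the other subunits, Itgb8 (-6.61 ± 0.79) and Itga1 (-3.87 ± 0.88) were lower and Itgb5 (0.81 ± 0.23) higher. Of the 26 activators tested 3 were lower, led by Bcar1 (-5.53 ± 0.53) and Rap1b (-0.99 ± 0.33), and 2 higher, Tns1 (2.21 ± 0.75) and Skap2 (0.59 ± 0.20), shares below those of all genes. Of the kinases 6 were lower, led by Src (-5.04 ± 0.41) and Fgr (-2.59 ± 0.51), and 3 higher, led by Plcg2 (1.21 ± 0.21) and Pik3cg (1.16 ± 0.36). The medians were 0.62 for the subunits, 0.07 for the activators and -0.14 for the kinases, beside 0.06 over all genes.

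Carboplatin called none of the listed genes at an adjusted p under 0.05. At the limits the study used for carboplatin, an absolute log2FC over 2 with an adjusted p under 0.25, Itga8 passed in tolerant cells, where 0.389% of all tested genes did, and none of the members or other listed genes passed in either setting (0.265% of all in primed cells). In LPS-primed cells the smallest p of each list was at Itgb5 (log2FC -0.55 ± 0.17, adjusted p = 0.285, edgeR), Tns1 (-1.60 ± 0.57, adjusted p = 0.438), Vav2 (-0.92 ± 0.26, adjusted p = 0.214) and Mfge8 (-0.34 ± 0.13, adjusted p = 0.517). In tolerant cells it was at Itga8 (3 against 44 pooled counts, adjusted p = 0.111, edgeR), Rapgef1 (-0.41 ± 0.15, adjusted p = 0.483), Vav3 (-0.96 ± 0.26, adjusted p = 0.153) and F11r (1.05 ± 0.37, adjusted p = 0.409). With the replicate block, Tns1 (adjusted p = 0.0308), Vav2 (0.0308), Vav3 (0.0343) and Fyn (0.0364) were called lower in primed cells by edgeR. In tolerant cells, Itga8 (0.0497), Tns3 (0.0378), Vav3 (4.5e-04) and Fyn (0.0156) were called lower and F11r (0.00813) higher. For the difference of carboplatin effects the smallest p of each list was at Itga8, Cyth1, Btk and Mfge8, each with an adjusted p of 1.000 by edgeR.

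Some members carried a difference between replicate numbers that all groups shared. Replicate 1 was the lowest of the 3 samples for Itga4, Itga6, Itgal and Itgb1 in all 6 groups, while for Itgb2 it was the highest in all 6. The ratio of the highest to the lowest sample of a group ran from 2.53 to 4.15 for Itga4, from 1.53 to 2.89 for Itga6 and from 1.22 to 1.35 for Itgb2. Itga5 was among the steadiest, at 1.11 to 1.39. The labels do not say what the replicate numbers stand for, so their part in these ratios was not tested beyond the block.

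Finally, the tested genes whose log2 CPM followed a member most closely over the 18 samples were sought for the 7 members that passed the stricter limit in some comparison. Itgam was followed by Pla2g7 (Pearson's r = 0.983), Lpcat2 (0.983) and Hmox1 (0.980). Itgal was followed by Cflar (0.965), C9orf72 (0.946) and Sh3bgrl2 (0.937), Itga4 by Bach1 (0.947), Mdm4 (0.931) and Il6st (0.930), and Itga5 by Tnf (0.985), Map3k6 (0.976) and Gch1 (0.972). Itga6 was followed by Fundc2 (0.953), Ppp3ca (0.947) and Kif11 (0.946), Itgav by Fbxw11 (0.985), Aebp2 (0.979) and Rps6ka3 (0.976), and Itgb3 by Serpinb6a (0.968), Rps4x (0.965) and Tpt1 (0.957). The 18 samples share 6 group means and libraries, so these values are descriptions.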

How the data were processed

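RNA of 18 BMDM samples was sequenced on a HiSeq as paired reads of 150 bp; the authors aligned reads with HISAT2 to GRCm39 and deposited raw counts per gene from HTSeq-count, with 1 table per sample; tool versions, annotation and strand setting are not given in the sources used here. The 5 summary rows of each table, which held 41.5 to 46.9% of read pairs, were left out of library sizes and tests. Columns of the authors' own comparisons were not among the tables used.

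Counts were filtered with filterByExpr (minimum count 10, minimum total 15), scaled by TMM and fitted over all 6 groups with edgeR's quasi-likelihood test (edgeR 4.0.16, R 4.3.3, prior count 0.125), with Benjamini-Hochberg adjustment over 11305 genes and a call at an adjusted p under 0.05. SE was derived from the F statistic, and 95% intervals from the t distribution with the degrees of freedom of the fit. For normalized counts, each library was set to the mean effective (TMM-scaled) library size, and levels per kb use the canonical transcript of GENCODE vM39. Intervals of count ratios were exact (95%) and, like the floor of 3 counts per library, cover counting error only. Alternatives were RLE size factors, library size alone, no filter, at least 10 counts in every sample, DESeq2 1.42.0, limma-voom (limma 3.58.1), only the groups compared, the replicate number as a block, other limits and leaving out each replicate; exon union lengths were added after seeing the data.

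Same-numbered samples deviated together. The correlation of their deviations from the group means was above 0.1 in 44 of 45 pairs, with a mean of 0.349. The lowest was 0.0631, for replicate 3 of LPS-primed and LPS-stimulated (10 ng/ml) BMDMs. The numbers were therefore taken to pair the samples in all comparisons but the difference of LPS responses. For samples of different number the mean was -0.17. That value largely follows from the mean for the same number, since the deviations within a group sum to 0, and adds no evidence. The fit described above has no block; the fit with the block is an alternative, given beside the results whose call it changes. The pairing comes from the data, since the labels say nothing of what a number marks.

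Members, lists and tests were chosen with earlier results of these data known. The genes named were all 10 members; up to 2 called genes per list, direction and comparison with the largest absolute log2FC; the gene with the smallest p where a list had no call; and the 3 genes most correlated with each member past the study's limits. Icam1, Tln1 and further values of named genes were added after values were seen. Comparisons that share groups are not independent of each other.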

Additional observations from a re-analysis of the deposited data

Results flagged for a closer look

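For 3 of the 10 genes the response to 10 ng/ml of LPS differed between unprimed and LPS-primed BMDMs by a test of the difference itself (edgeR, 3 samples in each of 4 groups). By the same test, 13.3% of all tested genes had a lower and 10.5% a higher response after priming. All 3 members had a lower one. The difference on the log2 scale was -2.39 ± 0.41 for Itgal (adjusted p = 4.0e-04, edgeR). It was -2.21 ± 0.55 for Itgav (adjusted p = 0.00729, edgeR) and -1.57 ± 0.19 for Itga5 (adjusted p = 1.3e-05, edgeR). The single dose raised each of them in 3 of 3 pairs. After priming, Itga5 and Itgav were again higher in 3 of 3 pairs, and the log2FC of Itgal was 0.08.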

How the results depend on the processing

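Of 1277 values of single members under alternatives, 1257 kept the direction and the side of the threshold or had no call in either fit, 14 gained a call and 6 lost one; 99 changed sign without a call on either side. No called member reversed. At the study's limits (absolute log2FC over 2), 3 members passed for priming, 3 for the single dose, 4 for tolerance against the single dose and 0 for the second dose. For the second dose, 2 were called by DESeq2, 2 with only the groups compared, 2 at an adjusted p under 0.25 and 3 with the replicate block, which called 18% of all tested genes. For the difference of LPS responses, 5 were called with the replicate block (Itga4 and Itga6 added, at -1.74 ± 0.22 and 1.32 ± 0.25, adjusted p = 6.3e-06 and 5.1e-04, edgeR) and 6 at an adjusted p under 0.25. Of the 11305 tested genes, the block called 1939 with a higher and 2152 with a lower response there. Shares of all genes are not given here for DESeq2, the groups compared alone or the limit of 0.25. The block changed no member's call other than those given. Leaving out each replicate gave 6 to 7 members for priming, 4 to 5 for the single dose and 8 for tolerance against it. It gave 1 for the second dose, 0 for carboplatin and 3 to 4 for the difference of LPS responses. The activators called, of 26 tested, moved to 6 for priming without unstimulated replicate 3, or LPS-primed replicate 1 or 2. For tolerance against the single dose they moved to 5 without LPS-tolerant replicate 1, or LPS-stimulated (10 ng/ml) replicate 2 or 3. They moved to 2 for the second dose without LPS-tolerant replicate 3. For the difference of LPS responses they moved to 2 without LPS-primed replicate 3, LPS-tolerant replicate 2, or LPS-stimulated (10 ng/ml) replicate 2 or 3. The lists differ in size and were not compared by these counts. Without LPS-tolerant replicate 3, 2 other subunits in place of 4 were called for tolerance against the single dose. Library size alone moved the median log2FC of all genes from -0.02 to -0.26 for priming, from -0.01 to -0.11 for the second dose and from 0.06 to 0.30 for the difference of LPS responses. With counts not divided by length, the difference in the Itgam share was 5.53 points for priming, -20.9 for the single dose and 26.2 for tolerance against it, and that of Itgal -3.57, 21.4 and -24.8; with exon union lengths the Itgam share differed by 4.92 for priming. With 3 samples per group, spread as wide as that of Itga4 left intervals over 2 log2 units, and the counts of Itgb3 in samples given priming, at most 7, limit its fold changes there.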
